A study of Mus musculus with 12 samples.

Results

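Genes that mark and maintain the macrophage lineage were followed through inflammatory activation and inhibition of triglyceride synthesis in bone marrow-derived macrophages. The 9 genes were named by symbol and found among 47937 genes by their Ensembl identifiers. They are the colony-stimulating factor (CSF) receptors Csf1r, Csf2ra and Csf2rb, the lineage transcription factors Spi1, Cebpa and Cebpb, and the identity markers Adgre1, Cx3cr1 and Cd68. The rule that names them uses no measured value, but the genes were chosen with earlier results of these data known. RNA was sequenced from macrophages grown for 7 days from C57BL/6 bone marrow in 20 ng/ml CSF-1, which was added again on days 3 and 5, so that cells of every group had been raised in the ligand of Csf1r. In all, 4 groups of 3 libraries each were compared, namely resting macrophages (M0), cells activated with LPS (20 ng/ml) plus IFNγ (50 ng/ml) for 18 h (IFNγ + LPS), M0 treated with the DGAT1 inhibitor T863 (DGAT1i, 50 μM) for 18 h, and macrophages given IFNγ + LPS and DGAT1i together for 18 h. DGAT1 is the enzyme that adds the last fatty acid to diacylglycerol to make triglyceride. No time is given for the M0 libraries in the sample labels. The labels do not tie libraries to mice or cultures, and p-values measure the spread between these libraries, which may be technical. The descriptions of 2 of the 3 libraries of M0 with DGAT1i name compounds with other numbers, and both libraries were taken as T863 from their source names.

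Macrophages depend on CSF-1, which signals through the receptor tyrosine kinase encoded by Csf1r for survival and proliferation, whereas granulocyte-macrophage CSF (GM-CSF, encoded by Csf2) signals through a binding chain, Csf2ra, and a signalling chain, Csf2rb, that receptors for IL-3 and IL-5 also use. The transcription factor PU.1, encoded by Spi1, and the C/EBP factors, encoded by Cebpa and Cebpb, bind to myeloid promoters and enhancers, with C/EBPα known for its role in myeloid progenitors and C/EBPβ for its role in monocytes and in the transcription of inflammatory genes. F4/80 (Adgre1), the fractalkine receptor (Cx3cr1) and the endosomal and lysosomal glycoprotein CD68 are used to recognise macrophages in mouse tissue.

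Libraries held between 4996014 and 6621671 reads on genes, and levels are given as CPM, the reads of a gene relative to the TMM-scaled library total, where 1 CPM was worth 4.28 to 7.58 reads. Replicates were alike, with a Pearson's r of log2 CPM of 0.988 to 0.992 within groups. All 9 genes were among the 11760 genes that passed the filter on low counts. A gene was taken as changed at an adjusted p under 0.05 in edgeR's quasi-likelihood test, adjusted by Benjamini-Hochberg over the 11760 genes. By this test 73.3% of all genes changed with IFNγ + LPS, of which 50.6% were higher, and with library size in place of TMM the higher share was 25.05% and the all-gene median was -0.46 on the log2 scale, a shift of -0.47. Of the 9 genes, Cd68 stood above 99.7%, Adgre1 above 99.5% and Csf1r above 98.9% of tested genes per length in M0. Spi1, Csf2ra and Cebpa stood above 95.1%, 94.5% and 92.9%, and Cebpb, Csf2rb and Cx3cr1 above 79.5%, 75.4% and 68.25%. In IFNγ + LPS, Cx3cr1 stood above 3.06%. Markers of other cell types were in part counted. Those with 0 reads in the 12 libraries were 2 of 12 markers of neutrophils and their precursors (Ly6g and Retnlg), 0 of 8 of dendritic cells, 2 of 11 of T and B cells (Cd3e and Cd3g), 3 of 7 of mast cells and basophils, 3 of 10 of stromal and endothelial cells, and 6 of 9 of erythroid cells and megakaryocytes (the globin genes among them). The comparisons below share libraries, and their values are given side by side.

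All 9 genes changed with IFNγ + LPS (9 of 9, against 73.3% of all genes tested), and the 3 libraries of IFNγ + LPS did not overlap those of M0 for any of them, as was so for 75.4% of all genes tested. Of these, 5 rose (5 of 9, against 37.1% of all genes), namely Csf2ra, Csf2rb, Spi1, Cebpb and Adgre1. The other 4 fell (4 of 9, against 36.2% of all genes), namely Csf1r, Cebpa, Cx3cr1 and Cd68. Receptors, transcription factors and identity markers each held genes of both directions. The median log2 fold change of the 9 genes was 0.74, beside 0.01 over all genes tested. In bulk RNA, fewer cells with a transcript and less transcript per cell cannot be told apart. With library size in place of TMM all 9 genes kept their direction and passed the threshold, but 5 log2 fold changes moved by over 1.5 times, to -1.04 for Csf1r (from -0.57), 0.27 for Csf2ra (from 0.74), 0.84 for Spi1 (from 1.31), 0.57 for Adgre1 (from 1.04) and -1.19 for Cd68 (from -0.72).

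Of the markers of other cell types, 14 passed the filter on low counts, and they moved in both directions with the same stimulus. The 3 of dendritic cells rose, Ccr7 from 0 reads to a mean of 3.33 CPM, Clec9a from 0.0484 to 8.17 CPM and Xcr1 from 0.0464 to 5.53 CPM. These 3 were near 0 in M0 and in M0 with DGAT1i. They could pass the filter only through stimulated libraries, so the filter fixed the direction of their change. The same holds for Lck and Pecam1 below, and Cd79b passed through the M0 libraries. The dendritic cell list of 8 summed to 0.400 to 1.02 CPM in M0 and 14.8 to 21.4 CPM in IFNγ + LPS. Of the 5 of neutrophils and their precursors, Ngp, Ltf and Mmp8 fell (log2 fold changes -2.60, -2.93 and -1.45), S100a8 (0.34) and S100a9 (-0.36) did not pass the threshold, and the list of 12 summed to 37.8 to 46.1 CPM in M0 and 17.1 to 27.9 CPM in IFNγ + LPS. The endothelial genes Kdr and Pecam1 rose (log2 fold changes 3.23 and 3.73), and the stromal and endothelial list summed to 1.31 to 3.06 CPM in M0 and 17.6 to 21.4 CPM in IFNγ + LPS. With DGAT1i this sum was 2.38 to 2.84 CPM in M0 and 7.82 to 13.8 CPM in IFNγ + LPS. Of the T and B cell genes, Lck rose from a mean of 0.135 to 3.71 CPM whereas Cd79b fell from 2.26 to 0.0624 CPM and Cd4 from 2.99 to 1.26 CPM, and the summed level overlapped between M0 (4.21 to 6.53 CPM) and IFNγ + LPS (3.58 to 7.02 CPM), as did that of mast cells and basophils, at up to 1.11 CPM. The platelet chemokine Pf4 fell from a mean of 189 to 64.0 CPM (log2 fold change -1.56) and made up most of the erythroid and megakaryocyte sum, in which 6 erythroid genes had 0 reads and Itga2b stood at means of 0.327 and 0.794 CPM. The part of these cell types in the changes of the 9 genes was not tested.

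**Figure D1:**
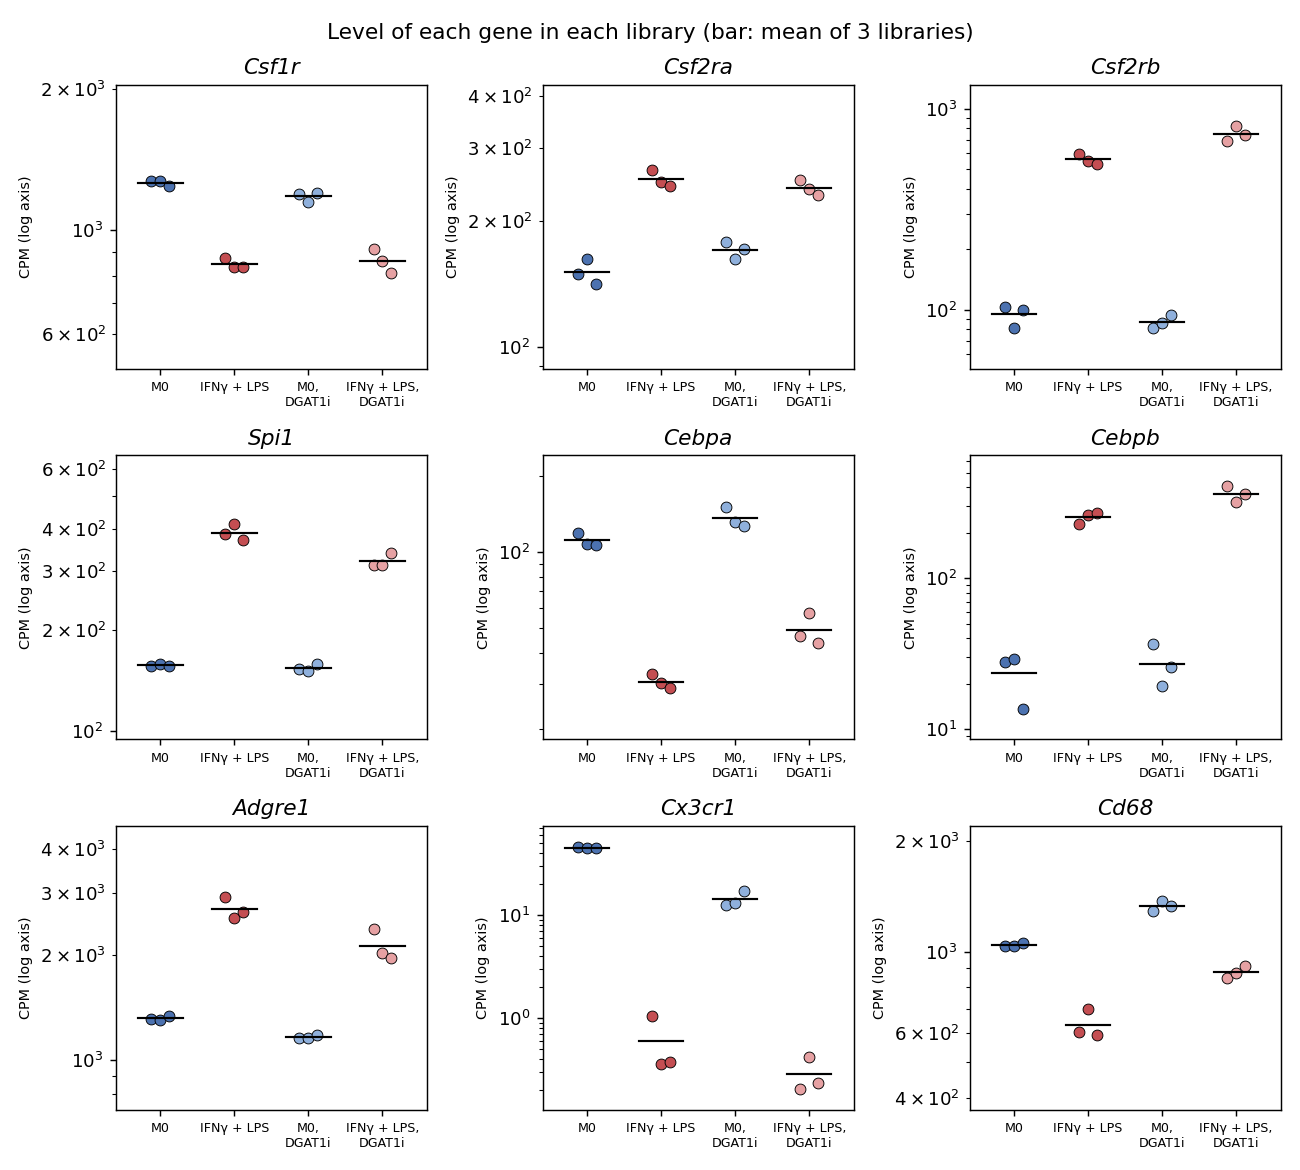
Level of each of the 9 genes in each of the 12 libraries, in CPM on a log axis that differs between panels, by group. Points are libraries and bars are means of 3 libraries. For all 9 genes the points of IFNγ + LPS lie apart from those of M0, and Cx3cr1 has the widest gap, from a mean of 45.3 CPM in M0 to 0.596 CPM in IFNγ + LPS.

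Csf1r, the CSF-1 receptor (chromosome 18, 61100598 to 61132149, plus strand, GRCm38), was counted at 1269.7, 1274 and 1239 CPM in the 3 M0 libraries and at 873, 835 and 834 CPM in those of IFNγ + LPS. The libraries of a group lay close together, and all 3 stimulated libraries were lower. The log2 fold change was -0.57 (SE 0.05, adjusted p = 4.5e-15), which leaves 0.672 of the M0 level. Csf1r shares 873 exon bases with Hmgxb3 on the opposite strand. The log2 fold change of Hmgxb3 was 0.50 (SE 0.08, adjusted p = 3.79e-07), or 0.03 with library size in place of TMM (adjusted p = 0.736), and it stood at 37.2 CPM in M0. No source used here states whether reads were assigned by strand.

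The GM-CSF receptor chains rose by unequal amounts. Csf2ra, the binding chain (chromosome 19, 61223957 to 61228429, minus strand), was counted at 149, 163 and 142 CPM in M0 and at 266, 249 and 244 CPM in IFNγ + LPS. Its log2 fold change was 0.74 (SE 0.06, adjusted p = 2.8e-17), or 1.67-fold. Csf2rb, the signalling chain (chromosome 15, 78325752 to 78353847, plus strand), was counted at 103, 81.4 and 99.4 CPM in M0 and at 597, 552 and 534 CPM in IFNγ + LPS. This was a 5.94-fold rise (log2 fold change 2.57, SE 0.08, adjusted p = 3.37e-18). Per length, the ratio of Csf2rb to Csf2ra went from between 0.197 and 0.276 in the M0 libraries to between 0.865 and 0.887 in those of IFNγ + LPS, and the ratio of Csf2rb to Csf1r from between 0.0507 and 0.0643 to between 0.508 and 0.543. Neither ratio overlapped between these groups.

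Csf2rb has a near-identical neighbour. Csf2rb2, which encodes the chain of the mouse receptor for IL-3 alone, covers 63.3% of the longest Csf2rb transcript at 95% identity or more, so that reads of the pair could be split between them. Csf2rb2 was counted at 35.01, 28.2 and 39.96 CPM in M0 and at 179, 153 and 154 CPM in IFNγ + LPS, and rose with a log2 fold change of 2.23 (SE 0.30, adjusted p = 0.000111). Both genes were higher in each stimulated library than in any M0 library.

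Spi1, which encodes PU.1 (chromosome 2, 91082390 to 91115756, plus strand), was counted at 156, 158 and 157 CPM in M0 and at 384, 412 and 369.8 CPM in IFNγ + LPS. The M0 libraries had an SD of 0.933 CPM, each stimulated library was above them, and the rise was 2.48-fold (log2 fold change 1.31, SE 0.05, adjusted p = 3.35e-29). The C/EBP genes moved in opposite directions. Cebpa (chromosome 7, 35119293 to 35121928, plus strand) was counted at 119, 108 and 107 CPM in M0 and at 32.8, 30.2 and 29.0 CPM in IFNγ + LPS, a fall to 0.275 of the M0 level (log2 fold change -1.86, SE 0.09, adjusted p = 7.57e-24). Cebpb (chromosome 2, 167688915 to 167690418, plus strand) was counted at 27.9, 28.9 and 13.6 CPM in M0 and at 228, 264 and 269 CPM in IFNγ + LPS. The third M0 library was lower than the other 2, each stimulated library was far above them, and the rise was 10.8-fold (log2 fold change 3.43, SE 0.25, adjusted p = 1.62e-06). Per length, the ratio of Cebpb to Cebpa was between 0.224 and 0.468 in M0 and between 12.1 and 16.3 in IFNγ + LPS, so that Cebpa was the higher of the pair in each M0 library and Cebpb in each stimulated library. Cebpb shares 312 exon bases with Tmem189 on the opposite strand, whose log2 fold change was 0.48 (SE 0.06, adjusted p = 3.95e-10), or 0.01 with library size (adjusted p = 0.867), and Cebpa shares 51 bases with the antisense gene Gm45091, which had 15 reads in the 12 libraries.

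The identity markers also parted. Adgre1, which encodes F4/80 (chromosome 17, 57358691 to 57483527, plus strand), was counted at 1308, 1301 and 1338 CPM in M0 and at 2917, 2554 and 2647 CPM in IFNγ + LPS. It rose 2.06-fold (log2 fold change 1.04, SE 0.06, adjusted p = 6.88e-23). Cd68 (chromosome 11, 69664213 to 69666153, minus strand) was counted at 1036, 1039 and 1053 CPM in M0 and at 604, 696 and 593 CPM in IFNγ + LPS. It fell to 0.606 of the M0 level (log2 fold change -0.72, SE 0.05, adjusted p = 5.02e-18). The spread of both genes was wider among the stimulated libraries, with SDs of 189 and 56.6 CPM against 19.2 and 9.17 CPM in M0, and the groups did not overlap.

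Cx3cr1, the fractalkine receptor (chromosome 9, 119901616 to 120069879, minus strand), was counted at 46.1, 45.1 and 44.6 CPM in M0 and at 1.05, 0.360 and 0.375 CPM in IFNγ + LPS. These are 976 reads in the 3 M0 libraries against 9 reads in the 3 stimulated ones. From the summed reads the M0 level was 78.6 times higher, with an exact 95% interval of 41.2 to 172 that covers counting error only. The log2 fold change was -6.25 (SE 0.22, adjusted p = 3.06e-32). Of the 9 reads, 5 were in IFNγ + LPS replicate 1, and without that library the log2 fold change was -6.86. The ligand of the receptor, Cx3cl1, had 31 reads in M0 and 4 in IFNγ + LPS, and did not pass the filter on low counts.

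Promoter sequences are shown for Cebpb and Cx3cr1, which moved most, and for Csf2ra and Cd68, which moved in opposite directions and held motifs of the lineage factors. RefSeq promoters of GRCm38.p6 could be used for 5 of the 9 genes, and 4 are printed, each as the 250 bases before the start of the transcript, 5′ to 3′ on the strand of the gene. They are Csf2ra (chr19:61228419-61228668, minus strand), Cd68 (chr11:69666171-69666420, minus strand), Cebpb (chr2:167688665-167688914, plus strand) and Cx3cr1 (chr9:120068297-120068546, minus strand). Capitals mark the core of the PU.1 motif (GAGGAA) and the C/EBP motif (TTGCNNAA), the DNA sequences bound by the products of Spi1 and of the C/EBP genes.
Csf2ra: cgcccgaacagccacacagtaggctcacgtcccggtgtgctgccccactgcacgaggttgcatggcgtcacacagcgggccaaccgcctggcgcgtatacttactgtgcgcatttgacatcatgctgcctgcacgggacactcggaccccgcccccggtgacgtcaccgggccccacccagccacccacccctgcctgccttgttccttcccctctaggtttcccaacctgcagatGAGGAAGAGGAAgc
Cd68: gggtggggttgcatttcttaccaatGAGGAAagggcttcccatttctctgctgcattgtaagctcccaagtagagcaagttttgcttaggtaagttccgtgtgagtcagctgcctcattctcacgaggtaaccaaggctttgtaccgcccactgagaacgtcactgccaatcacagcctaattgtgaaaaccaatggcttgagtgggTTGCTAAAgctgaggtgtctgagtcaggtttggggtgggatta
Cebpb: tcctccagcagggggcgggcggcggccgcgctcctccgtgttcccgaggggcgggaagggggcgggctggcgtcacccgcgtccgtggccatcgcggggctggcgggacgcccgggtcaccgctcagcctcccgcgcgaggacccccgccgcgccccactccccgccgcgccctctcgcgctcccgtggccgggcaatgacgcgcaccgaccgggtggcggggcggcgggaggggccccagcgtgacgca
Cx3cr1: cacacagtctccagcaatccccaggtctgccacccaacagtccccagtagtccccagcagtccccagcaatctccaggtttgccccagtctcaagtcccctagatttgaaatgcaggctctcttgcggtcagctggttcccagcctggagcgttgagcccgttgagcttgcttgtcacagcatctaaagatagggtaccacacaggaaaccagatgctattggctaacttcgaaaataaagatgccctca

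Both strands were searched for these motifs and for the interferon-γ activated site (TTCNNNGAA), and the motifs do not overlap one another in these windows. Csf2ra held the PU.1 core at 14 to 9 and again at 8 to 3 bases before the start. Cd68 held it at 225 to 220 bases and the C/EBP motif at 43 to 36 bases before the start. These starts are those of RefSeq and can differ from the GENCODE gene ends given above. The Csf2ra window begins at 61228419 and overlaps its GENCODE gene, which reaches 61228429. The Cx3cr1 window lies inside its gene, which reaches 120069879. None of the motifs was found in these windows of Cebpa, Cebpb and Cx3cr1, which says only that the letters are not there. Over 32851 promoters of the same length, 23.3% held the PU.1 core, 9.56% the C/EBP motif and 7.02% the interferon-γ activated site. The Cebpb window was 81.6% G and C and that of Cd68 49.2%, beside a median of 52.4% over the same promoters.

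With DGAT1i present in both arms, IFNγ + LPS moved the same 9 genes in the same directions (9 of 9, against 70.6% of all genes tested; 5 rose, against 35.3%, and 4 fell, against 35.3%), and the groups again did not overlap, as was so for 72.5% of all genes. Log2 fold changes were -0.46 for Csf1r, 0.50 for Csf2ra, 3.11 for Csf2rb, 1.05 for Spi1, -1.47 for Cebpa, 3.74 for Cebpb, 0.86 for Adgre1, -5.54 for Cx3cr1 and -0.60 for Cd68, with standard errors of 0.05 to 0.35. Cx3cr1 fell from 316 reads in the 3 libraries of M0 with DGAT1i to 4 reads in those of IFNγ + LPS with DGAT1i, a ratio of 49.7 (exact 95% interval 19.2 to 184, counting error only). With library size in place of TMM the log2 fold change of Csf2ra in this comparison was 0.07 and did not pass the threshold (adjusted p = 0.227), those of Csf1r, Spi1, Adgre1 and Cd68 were -0.88, 0.63, 0.44 and -1.02, and the share of higher calls over all genes went from 50.0% to 25.5%.

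**Figure D2:**
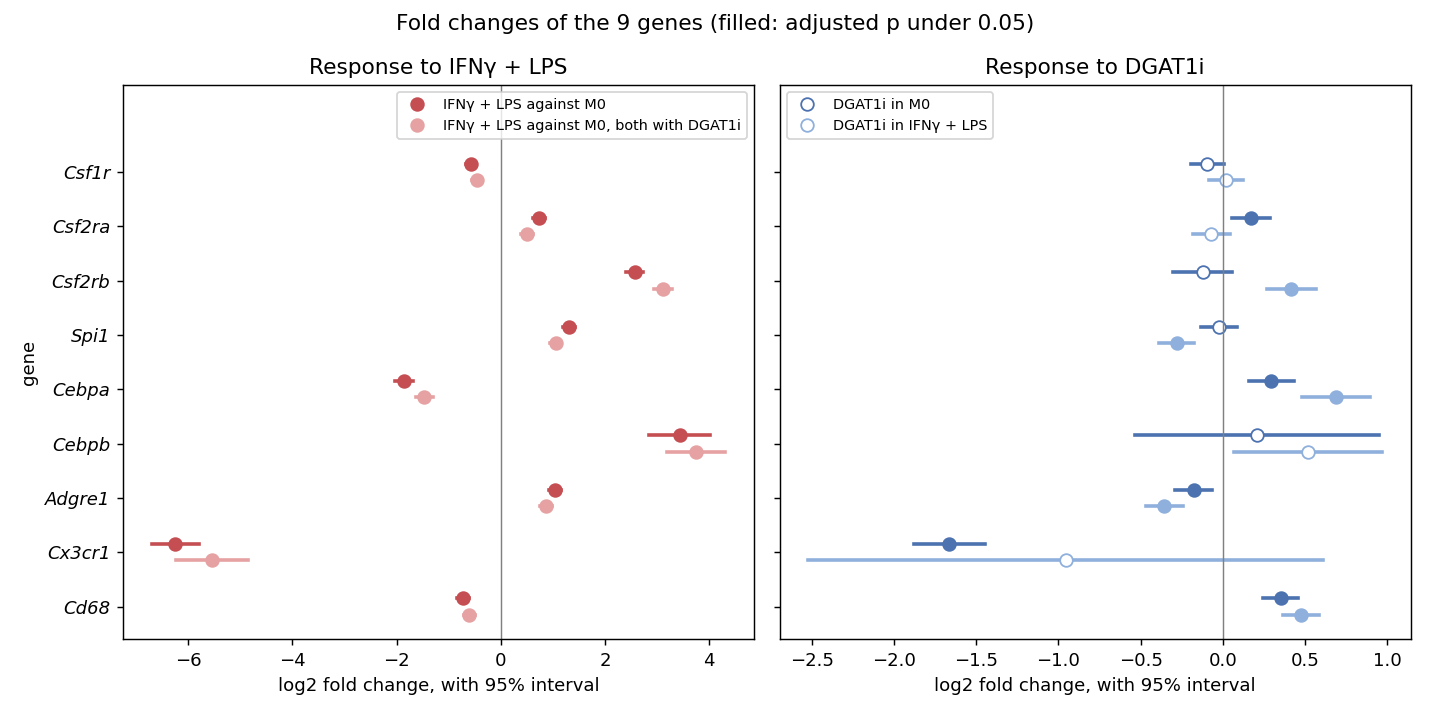
Log2 fold changes of the 9 genes with 95% intervals, for IFNγ + LPS against M0 without and with DGAT1i (left) and for DGAT1i in M0 and in IFNγ + LPS (right, on a narrower axis). Filled points passed an adjusted p of 0.05. On the left all 18 points are filled, 10 above 0 and 8 below it, and on the right 10 of 18 are filled, Csf2rb and Spi1 in IFNγ + LPS alone and Csf2ra and Cx3cr1 in M0 alone.

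DGAT1i changed 5 of the 9 genes in IFNγ + LPS (against 29.8% of all genes tested), and 6 of the 9 did not overlap between the groups, against 39.7% of all genes. Csf2rb, Cebpa and Cd68 rose (3 of 9, against 13.5% of all genes), and Spi1 and Adgre1 fell (2 of 9, against 16.3%). The median log2 fold change of the 9 genes was 0.02, beside -0.01 over all genes.

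Among the receptors, Csf2rb was counted at 689, 822 and 737 CPM in the libraries of IFNγ + LPS with DGAT1i, above the 534 to 597 CPM of IFNγ + LPS alone. Its log2 fold change was 0.42 (SE 0.07, adjusted p = 0.000107). Csf1r was counted at 912, 857 and 810.2 CPM and Csf2ra at 251, 239.7 and 231 CPM, and both overlapped with IFNγ + LPS alone. Their log2 fold changes were 0.02 (95% interval -0.08 to 0.12) and -0.07 (95% interval -0.18 to 0.05) and did not pass the threshold (adjusted p = 0.799 and 0.402). Csf2rb2 was counted at 152, 329.8 and 220.4 CPM, a wide spread, with a log2 fold change of 0.53 (95% interval -0.04 to 1.10) that did not pass the threshold (adjusted p = 0.151). Per length, the ratio of Csf2rb to Csf2ra was between 1.08 and 1.35 in these libraries, above the 0.865 to 0.887 of IFNγ + LPS alone. Length here is that of all annotated exons merged, 7277 bases for Csf2rb, whose longest transcript has 4900 bases. Which chain is the higher in a group can depend on this length, and on how reads are split with Csf2rb2.

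Of the transcription factors, Spi1 was counted at 311, 311 and 339 CPM in IFNγ + LPS with DGAT1i, below the lowest library of IFNγ + LPS, at 369.8 CPM (log2 fold change -0.28, SE 0.05, adjusted p = 3.43e-05). Cebpa was counted at 46.7, 57.6 and 43.7 CPM, above the 29.0 to 32.8 CPM without the inhibitor (log2 fold change 0.69, SE 0.10, adjusted p = 6.35e-07), and still below the 107 to 119 CPM of M0. Cebpb was counted at 408, 321 and 364 CPM, above the 228 to 269 CPM without the inhibitor. The libraries did not overlap, but the log2 fold change of 0.52 (SE 0.20) did not pass the threshold (adjusted p = 0.0825). Cebpb was more variable between libraries of M0 and of M0 with DGAT1i, with SDs of 8.53 CPM about a mean of 23.5 CPM and of 8.71 CPM about 27.1 CPM, and all 12 libraries shared 1 estimate of its spread. With the 6 libraries of the comparison alone the adjusted p was 4.16e-05, and without M0 replicate 3 it was 0.0400, at log2 fold changes of 0.54 and 0.52.

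Of the identity markers, Adgre1 was counted at 2362, 2029 and 1951 CPM in IFNγ + LPS with DGAT1i, below the 2554 to 2917 CPM without the inhibitor (log2 fold change -0.36, SE 0.06, adjusted p = 1.42e-06). Cd68 was counted at 848, 874 and 912 CPM, above 593 to 696 CPM (log2 fold change 0.48, SE 0.05, adjusted p = 2.66e-10). Both genes thus stood between their levels in M0 and in IFNγ + LPS. Cx3cr1 had 4 reads in the 3 libraries with DGAT1i and 9 without it, and a ratio between them could not be resolved at this depth (2.00, exact 95% interval 0.559 to 8.91).

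Markers of neutrophils and their precursors moved in the same comparison. The summed level of the 12 markers was 17.1 to 27.9 CPM in IFNγ + LPS and 64.9 to 84.1 CPM with DGAT1i, beside 37.8 to 46.1 CPM in M0 and 29.2 to 37.3 CPM in M0 with DGAT1i. Of the 5 markers that passed the filter, 4 rose with DGAT1i in IFNγ + LPS (against 13.5% of all genes), namely S100a8, S100a9, Ngp and Ltf. S100a8 went from a mean of 9.13 to 34.5 CPM and S100a9 from 7.78 to 25.8 CPM. Mmp8 stood at means of 2.27 and 1.57 CPM (log2 fold change -0.54, adjusted p = 0.323), and Ly6g and Retnlg had 0 reads in all libraries. The 8 markers of dendritic cells summed to 14.8 to 21.4 CPM in IFNγ + LPS and 6.38 to 9.81 CPM with DGAT1i, beside 0.400 to 1.02 CPM in M0 and 0.264 to 1.14 CPM in M0 with DGAT1i. Of these, Xcr1 and Clec9a fell with DGAT1i in IFNγ + LPS (log2 fold changes -2.65 and -1.73), whereas Ccr7 stood at means of 3.33 and 4.28 CPM (log2 fold change 0.33, adjusted p = 0.514). In the same comparison Kdr fell (log2 fold change -0.88, adjusted p = 0.000409) and Pf4 rose (log2 fold change 0.23, adjusted p = 0.0185), with an erythroid and megakaryocyte sum of 63.2 to 66.5 CPM in IFNγ + LPS and 72.7 to 82.4 CPM with DGAT1i. The part of any of these cell types in the changes of the 9 genes was not tested.

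In M0, DGAT1i changed 5 of the 9 genes (against 24.4% of all genes tested), and 5 of the 9 did not overlap between the groups, against 37.8% of all genes. Csf2ra, Cebpa and Cd68 rose (3 of 9, against 11% of all genes), and Adgre1 and Cx3cr1 fell (2 of 9, against 13.4%). The median log2 fold change of the 9 genes was -0.02, beside 0.00 over all genes. With library size in place of TMM the share of higher calls over all genes went from 45.2% to 29.7% in this comparison. Of the 14 tested markers of other cell types, Cd79b fell with DGAT1i in M0 (log2 fold change -1.11, adjusted p = 0.0296, means 2.26 and 1.04 CPM), and the other 13 did not pass the threshold. Of these, Ccr7, Xcr1, Clec9a, Pecam1 and Lck had means of at most 0.369 CPM in both groups, too few reads to show a change. S100a8 passed with library size (log2 fold change -0.52, adjusted p = 0.0409). The part of these cells was not tested.

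Cx3cr1 had the largest change of the 9 genes in this comparison. It was counted at 12.6, 13.1 and 17.0 CPM with DGAT1i, against 44.6 to 46.1 CPM in M0, or 316 against 976 reads. The log2 fold change was -1.66 (SE 0.11, adjusted p = 8.89e-19), and the M0 level was 3.17 times higher. Cd68 was counted at 1291, 1375 and 1332 CPM, above the 1036 to 1053 CPM of M0 (log2 fold change 0.35, SE 0.05, adjusted p = 2.85e-07), and Cebpa at 151, 131 and 127 CPM, above the 107 to 119 CPM of M0 (log2 fold change 0.30, SE 0.07, adjusted p = 0.000735). Adgre1 was counted at 1153, 1159.8 and 1178 CPM, below the 1301 to 1338 CPM of M0 (log2 fold change -0.18, SE 0.06, adjusted p = 0.0162). The groups did not overlap for these 4 genes.

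Csf2ra was counted at 178, 162 and 172 CPM in M0 with DGAT1i, which overlapped with M0 (log2 fold change 0.17, SE 0.06, adjusted p = 0.0202). The calls of Csf2ra and Adgre1 were lost when single libraries were left out. Csf2ra did not pass the threshold without M0 replicate 1 or 3 or without M0 with DGAT1i replicate 1 or 3 (log2 fold changes 0.16, 0.13, 0.14 and 0.17, adjusted p = 0.0739, 0.150, 0.123 and 0.0558), nor with DESeq2 or library size (0.15 and 0.12, adjusted p = 0.105 and 0.139). Adgre1 did not without M0 replicate 3 or without M0 with DGAT1i replicate 1 or 2, where the log2 fold change was -0.17 in each case and the highest adjusted p was 0.0559.

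The other 4 genes did not pass the threshold in M0. Csf1r was counted at 1197, 1148 and 1197 CPM with DGAT1i, below each M0 library, with a log2 fold change of -0.09 (95% interval -0.20 to 0.01, adjusted p = 0.177), and it passed with library size in place of TMM (log2 fold change -0.15, adjusted p = 0.0191). Csf2rb was counted at 81.2, 85.6 and 93.8 CPM, with a log2 fold change of -0.12 (95% interval -0.30 to 0.06, adjusted p = 0.355), and it passed without M0 replicate 2 (log2 fold change -0.22, adjusted p = 0.0330). Spi1 was counted at 153, 152 and 159 CPM, with a log2 fold change of -0.02 (95% interval -0.13 to 0.09, adjusted p = 0.827). Cebpb was counted at 36.4, 19.2 and 25.6 CPM, with a log2 fold change of 0.21 (95% interval -0.53 to 0.95, adjusted p = 0.715). Apart from Csf1r, these genes overlapped with M0.

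The response to DGAT1i differed between IFNγ + LPS and M0 for 4 of the 9 genes (against 18.5% of all genes tested). Csf2rb and Cebpa responded more positively in IFNγ + LPS (2 of 9, against 8.66% of all genes), and Csf2ra and Spi1 more negatively (2 of 9, against 9.8%). The differences on the log2 scale were 0.54 for Csf2rb (SE 0.11, adjusted p = 0.00142), 0.39 for Cebpa (SE 0.12, adjusted p = 0.0187), -0.24 for Csf2ra (SE 0.08, adjusted p = 0.0279) and -0.26 for Spi1 (SE 0.08, adjusted p = 0.0128). That of Csf2ra did not pass the threshold without M0 replicate 1 or 3, IFNγ + LPS replicate 1, M0 with DGAT1i replicate 1 or IFNγ + LPS with DGAT1i replicate 3, where it lay between -0.23 and -0.20, nor with library size in place of TMM (-0.19, adjusted p = 0.0920) or with DESeq2 (-0.23, adjusted p = 0.0951). That of Cebpa did not pass it without M0 replicate 1, IFNγ + LPS replicate 2 or 3, M0 with DGAT1i replicate 3 or IFNγ + LPS with DGAT1i replicate 2, where it lay between 0.26 and 0.38, nor with DESeq2 (0.41, adjusted p = 0.0501). That of Spi1 was -0.22 and did not pass without IFNγ + LPS replicate 2. When reads of Csf2rb and Csf2rb2 were summed, an alternative chosen after seeing the data, the difference was 0.60 and did not pass the threshold (adjusted p = 0.0524). Cebpa rose in both states, and Cd68 rose and Adgre1 fell in both, with differences of 0.12 (95% interval -0.03 to 0.27) for Cd68 and -0.18 (95% interval -0.34 to -0.02, adjusted p = 0.114) for Adgre1. For Csf1r, Cebpb and Cx3cr1 the differences were 0.12 (95% interval -0.03 to 0.26), 0.31 (95% interval -0.56 to 1.18) and 0.71 (95% interval -1.19 to 2.61). With library size in place of TMM, the share of higher calls over all genes in this comparison went from 46.9% to 58.2%.

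Levels were compared between genes per kilobase of exon, with all annotated exons of a gene merged, and close ranks can depend on that length. In M0 the order was Cd68 at 829 ± 7.29 CPM per kilobase (SD, n = 3), Adgre1 at 406, Csf1r at 218, Spi1 at 58.3, Csf2ra at 52.7, Cebpa at 42.2, Cebpb at 15.6, Csf2rb at 13.0 and Cx3cr1 at 10.0, and of the neighbours in this order only Cebpb and Csf2rb overlapped between libraries. In IFNγ + LPS it was Adgre1 at 836 ± 58.2, Cd68 at 502, Cebpb at 169, Csf1r at 147, Spi1 at 144, Csf2ra at 88.0, Csf2rb at 77.1, Cebpa at 11.6 and Cx3cr1 at 0.132 CPM per kilobase, with overlap between Csf1r and Spi1. Cebpb thus stood below Cebpa in M0 and above Csf1r in IFNγ + LPS.

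In M0 with DGAT1i, Cd68 stood at 1060.2, Adgre1 at 359, Csf1r at 204, Csf2ra at 59.5, Spi1 at 57.4, Cebpa at 51.8, Cebpb at 17.99, Csf2rb at 11.9 and Cx3cr1 at 3.16 CPM per kilobase, and Csf2ra, Spi1 and Cebpa overlapped in turn, as did Cebpb and Csf2rb. In IFNγ + LPS with DGAT1i, Cd68 at 699 and Adgre1 at 653 CPM per kilobase overlapped, whereas Adgre1 exceeded Cd68 in IFNγ + LPS alone. Below them stood Cebpb at 242, Csf1r at 149, Spi1 at 119, Csf2rb at 103, Csf2ra at 83.8, Cebpa at 18.7 and Cx3cr1 at 0.0634 CPM per kilobase, with no overlap between neighbours.

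**Figure D3:**
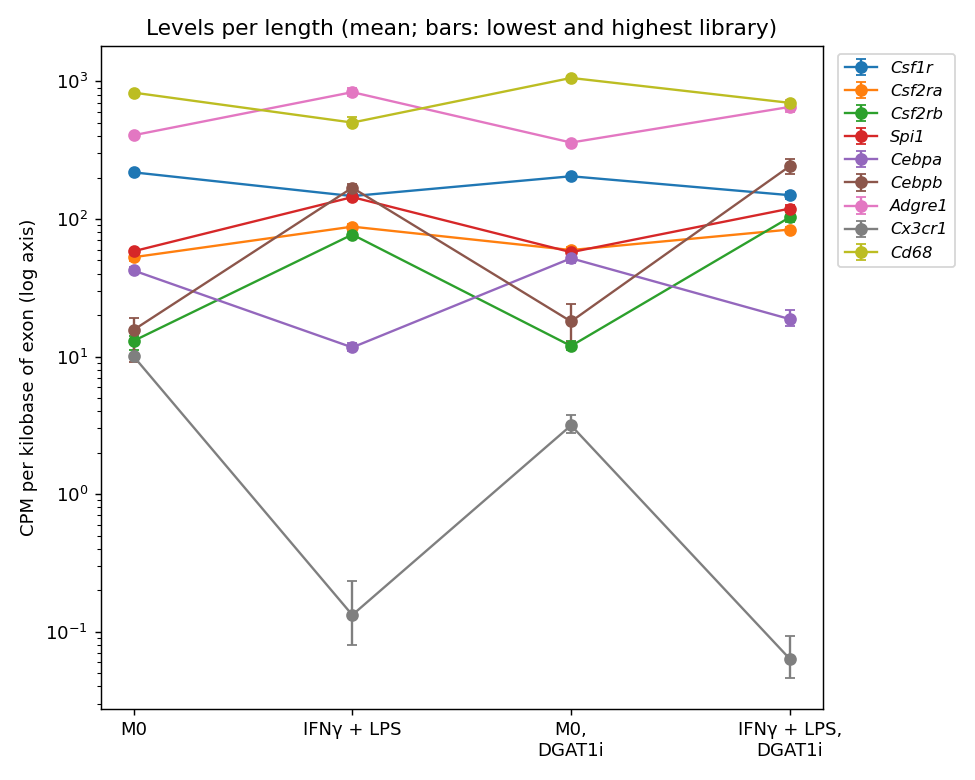
Mean level of each of the 9 genes per kilobase of exon in the 4 groups, on a log axis, with bars from the lowest to the highest of 3 libraries. The lines of Cebpa and Cebpb cross between M0 (42.2 and 15.6 CPM per kilobase) and IFNγ + LPS (11.6 and 169), and Cx3cr1 falls furthest.

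The genes whose pattern was most like that of a member are given as a description over 12 libraries, since the 4 groups set most of the variation. Pearson's r of log2 CPM was 0.997 between Csf1r and Zfp367, 0.987 between Csf2ra and Dock4, 0.997 between Csf2rb and Cers6, 0.998 between Spi1 and Vav1, 0.990 between Cebpa and Gcnt1, 0.993 between Cebpb and Acaa1a, 0.991 between Adgre1 and Vasp, 0.999 between Cx3cr1 and Cdca2, and 0.994 between Cd68 and Fabp4. Ifngr1, which encodes a chain of the IFNγ receptor, was also among the 3 most alike to Csf1r, at 0.994, and went from a mean log2 CPM of 7.23 in M0 to 5.73 in IFNγ + LPS. Fabp4, a fatty acid binding protein, went from 5.11 in M0 to 3.05 in IFNγ + LPS, and stood at 6.14 and 4.47 in the same states with DGAT1i.

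Ligands and partner chains of the receptors were followed in a list of 13 genes, of which 4 passed the filter on low counts. All 4 rose with IFNγ + LPS (against 37.1% of all genes tested), and 3 with library size in place of TMM (against 19.9%). Csf1, the ligand of Csf1r, was counted at 2.18, 2.26 and 2.09 CPM in M0 and at 40.0, 44.8 and 36.2 CPM in IFNγ + LPS, an opposite course to that of its receptor (log2 fold change 4.20, SE 0.17, adjusted p = 1.74e-29). With DGAT1i it stood at 18.9, 20.0 and 25.9 CPM in IFNγ + LPS, below each library without the inhibitor (log2 fold change -0.91, SE 0.12, adjusted p = 2.19e-08). Csf3r, the receptor for granulocyte CSF, rose from 24.5 ± 2.63 to 188 ± 7.86 CPM (SD, n = 3; log2 fold change 2.94, SE 0.08, adjusted p = 7.62e-39). With DGAT1i the log2 fold change of Csf3r was 0.27 in M0 (adjusted p = 0.0264, or 0.0854 with library size) and -0.42 in IFNγ + LPS, a difference of -0.70 (SE 0.11, adjusted p = 5.72e-06). Il3ra, the binding chain for IL-3, rose by 0.44 (SE 0.10, adjusted p = 9.58e-05), but with library size its log2 fold change was -0.03 (adjusted p = 0.792). Il34, Csf2, Il3 and Il5 had 0 reads in the 12 libraries, and Csf3 had 5 reads in IFNγ + LPS, 2 in IFNγ + LPS with DGAT1i and 0 in M0.

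Of 30 genes that act downstream of CSF receptors, 18 rose and 9 fell with IFNγ + LPS (against 37.1% and 36.2% of all genes tested), with a median log2 fold change of 0.37, beside 0.01 over all genes. With library size in place of TMM, 13 rose and 12 fell (against 19.9% and 59.5%), and the median was -0.10, beside -0.46 over all genes. The suppressors of cytokine signalling led the increases, Socs1 from 0.553 ± 0.115 to 435 ± 20.4 CPM (SD, n = 3; log2 fold change 9.56) and Socs3 from 0.987 ± 0.509 to 437 ± 6.88 CPM (log2 fold change 8.78). In IFNγ + LPS, DGAT1i raised 2 of the 30 and lowered 11 (against 13.5% and 16.3%). Src, a kinase recruited by CSF1R, rose from 52.3 ± 0.640 to 86.5 ± 1.35 CPM (log2 fold change 0.73, adjusted p = 3.92e-10), and Plcg2, a phospholipase, fell from 148 ± 3.68 to 94.9 ± 4.80 CPM (log2 fold change -0.64, adjusted p = 1.77e-12). In M0, 1 rose and 8 fell (against 11% and 13.4%), among them the adaptor Dok2, from 156 ± 4.22 to 97.8 ± 10.9 CPM (log2 fold change -0.67, adjusted p = 3.15e-13). The responses to DGAT1i differed for 11 of the 30 (against 18.5%), 2 of them higher in IFNγ + LPS and 9 lower (against 8.66% and 9.8%). With library size these were 5 and 7 (against 10.5% and 7.5%). Without M0 replicate 3 (against 12.2% of all genes lower) or M0 with DGAT1i replicate 1, 5 of the 30 fell in M0. Without M0 replicate 1, 2 rose there (against 8.77%). In IFNγ + LPS, 5 rose without IFNγ + LPS with DGAT1i replicate 1. Only 1 rose without IFNγ + LPS replicate 2 (against 11.1%), without IFNγ + LPS with DGAT1i replicate 2, or with DESeq2 (against 9.47%). For the difference, 1 was higher without M0 replicate 1 (against 7.4%) or M0 with DGAT1i replicate 1.

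Of 29 other transcription factors of the myeloid lineage, 18 fell and 8 rose with IFNγ + LPS (against 36.2% and 37.1% of all genes tested), with a median of -0.44, beside 0.01 over all genes. With library size 22 fell and 5 rose (against 59.5% and 19.9%), with a median of -0.90, beside -0.46. Myc fell from 34.4 ± 3.35 to 0.343 ± 0.442 CPM (SD, n = 3; log2 fold change -6.66, adjusted p = 1.18e-29), and Egr2 from 31.7 ± 2.17 to 1.65 ± 0.285 CPM (log2 fold change -4.24, adjusted p = 5.6e-26). Klf4, a monocyte factor, rose from 8.20 ± 1.32 to 132 ± 11.9 CPM (log2 fold change 4.002, adjusted p = 2.78e-39) and fell to 51.3 ± 4.70 CPM with DGAT1i (log2 fold change -1.36, adjusted p = 4.01e-20). DGAT1i raised 4 and lowered 4 of the 29 in IFNγ + LPS (against 13.5% and 16.3%), and raised 4 and lowered 5 in M0 (against 11% and 13.4%), where Id3 fell (log2 fold change -1.03, adjusted p = 1.94e-05) and Bhlhe41 rose (log2 fold change 0.79, adjusted p = 3.6e-13). With library size 3 rose and 9 fell in M0 (against 7.53% and 17.8% of all genes). With single libraries left out the number that fell was 2 to 5 in M0, with 2 without M0 with DGAT1i replicate 1. In IFNγ + LPS it was also 2 to 5, with 2 without IFNγ + LPS replicate 1 or IFNγ + LPS with DGAT1i replicate 3. Over all genes, 2270 to 3017 were called in M0 in these fits, against 2869 with all 12 libraries. In IFNγ + LPS 2916 to 3567 of all genes were called, against 3508. DESeq2 called 2 higher and 3 lower in M0 (against 6.03% and 9.65% of all genes). In IFNγ + LPS it called 4 higher and 2 lower (against 9.47% and 12.3%).

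Of 30 further genes that identify macrophages, 13 rose and 14 fell with IFNγ + LPS (against 37.1% and 36.2% of all genes tested), or 11 and 17 with library size (against 19.9% and 59.5%). The mannose receptor Mrc1 fell from 1499 ± 167 to 37.7 ± 2.49 CPM (SD, n = 3; log2 fold change -5.31, adjusted p = 6.78e-19). The scavenger receptor Marco had 1 read in the 3 M0 libraries and was counted at 142, 78.5 and 167 CPM in IFNγ + LPS. With DGAT1i it was counted at 50.8, 19.2 and 33.9 CPM, below each library of IFNγ + LPS alone (log2 fold change -1.89, SE 0.36, adjusted p = 0.00439). DGAT1i raised 2 and lowered 14 of the 30 in IFNγ + LPS (against 13.5% and 16.3%), with a median of -0.13, beside -0.01 over all genes, and Siglec1 fell from 337 ± 11.9 to 161 ± 15.8 CPM (log2 fold change -1.07, adjusted p = 1.1e-21). In M0 it raised 7 and lowered 10 (against 11% and 13.4%), and the chemokine receptor Ccr2 fell from 30.7 ± 0.975 to 10.9 ± 2.54 CPM (log2 fold change -1.48, adjusted p = 3.55e-14), whereas in IFNγ + LPS it stood at 11.6 ± 2.00 CPM without and 10.5 ± 2.30 CPM with the inhibitor. Cd14, a co-receptor for LPS, also fell in M0, from 168 ± 16.1 to 98.2 ± 7.24 CPM (log2 fold change -0.78, adjusted p = 4.82e-15). The responses to DGAT1i differed for 18 of the 30 (against 18.5%), 5 higher in IFNγ + LPS and 13 lower (against 8.66% and 9.8%).

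**Figure D4:**
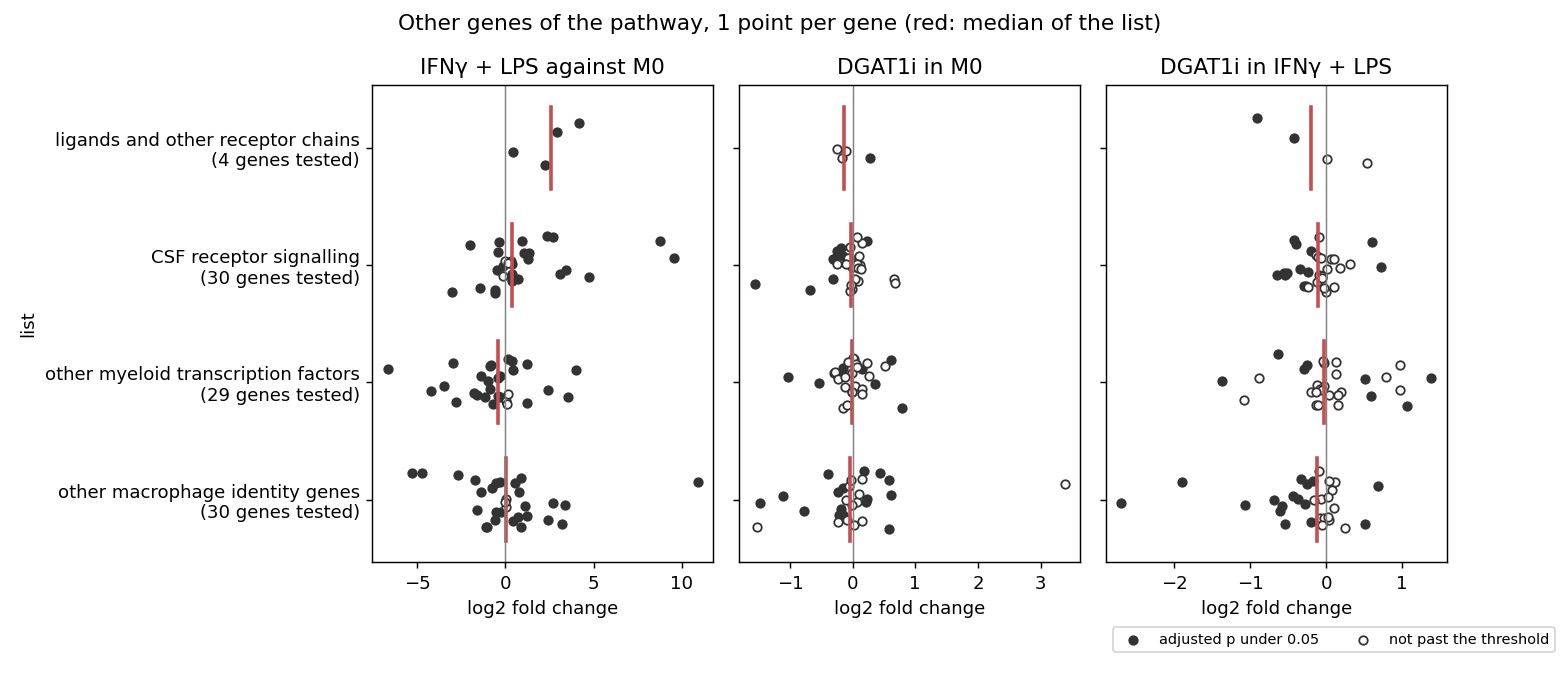
Log2 fold changes of the genes of 4 lists around the 9 genes, 1 point per gene, for IFNγ + LPS against M0, DGAT1i in M0 and DGAT1i in IFNγ + LPS, with an axis of its own for each comparison. Filled points passed an adjusted p of 0.05 and red bars are medians. In IFNγ + LPS, DGAT1i gave filled points below 0 for 11 of 30 genes of CSF receptor signalling and 14 of 30 macrophage identity genes, and above 0 for 2 and 2, beside 16.3% of all genes lower and 13.5% higher.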

How the data were processed

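RNA-seq of 12 libraries was analysed, with groups taken from the deposited titles, source names and descriptions. The authors deposited raw read counts per gene, without normalization, for 47937 Ensembl identifiers, of which 25746 had 0 reads in all libraries. The submitters' processing notes name GRCm38 and DESeq2, and no source used here gives the aligner, the counting tool, the strand setting or the annotation. The labels name a NEBNext low-input kit and the study's methods another, stranded, kit. Without versions, 47224 identifiers matched GENCODE release M21, which gave symbols, positions and exon lengths.

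Differences were tested on the counts by edgeR 4.0.16 under R 4.3.3 (filterByExpr, TMM, glmQLFit with robust estimation, 1 mean per group over the 12 libraries, common biological coefficient of variation 0.0507), with Benjamini-Hochberg adjustment over 11760 genes. Standard errors are the log2 fold change over the root of the F statistic. CPM are counts over TMM-scaled library sizes, and intervals on reads cover counting error only. No replicates of a group agreed within counting noise (chi-square per gene 1.93 to 4.08), so none were merged as 1 library deposited more than once; this does not show that they came from separate cultures. The test was also run on simulated counts in which few genes changed, in either direction at random. In the data 73.3% of genes changed with IFNγ + LPS, so the simulation does not bear on the choice of scaling. Alternatives were DESeq2 1.42.0, scaling by RLE or by library size alone, a minimum mean CPM of 1 or no filter, fits restricted to the 6 libraries compared, a block for replicate number, and leaving out single libraries. Near-identical copies were searched with BLAST 2.17.0 at 95% identity, and plots were made in Python 3.11.15 (matplotlib 3.10.9).

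The 9 genes, the lists around them and the motifs were chosen with earlier results of these data known, so that counts of members describe them and do not test them. All 9 genes are named. Of the other lists, up to 3 called genes with the largest log2 fold change per list and comparison could be named, together with ligands, partner chains, near-identical copies and overlapping genes, and the 3 genes with the highest r for each member. Lists of marker genes of neutrophils, dendritic cells, T and B cells, mast cells, stromal and endothelial cells and erythroid cells were read in the same way.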

Additional observations from a re-analysis of the deposited data

Results flagged for a closer look

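The response of 4 of the 9 genes to DGAT1i differed between IFNγ + LPS and M0 by the interaction term of edgeR's quasi-likelihood test, against 18.5% of all genes tested. The differences on the log2 scale were 0.54 for Csf2rb, 0.39 for Cebpa, -0.24 for Csf2ra and -0.26 for Spi1. Those of Csf2ra, Cebpa and Spi1 lost the call when single libraries were left out, and those of Csf2ra and Cebpa with DESeq2 also. That of Csf2rb lost it when its reads were summed with those of Csf2rb2 (adjusted p = 0.0524). The count was 2 with DESeq2 (against 6.14% of all genes higher and 6.25% lower). Csf2rb rose by 0.42 in IFNγ + LPS and stood at -0.12 in M0, whereas Spi1 fell by 0.28 and stood at -0.02. Csf2ra stood at -0.07 in IFNγ + LPS and rose by 0.17 in M0, and Cebpa rose in both states, by 0.69 and 0.30.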

How the results depend on the processing

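Of 45 fold changes (9 genes in 5 comparisons), 32 kept their direction and their side of the threshold in each alternative and with each library left out. The 18 responses to IFNγ + LPS were among them, except that of Csf2ra with DGAT1i, which did not pass with library size only (adjusted p = 0.227); this scaling moved the median of all genes by -0.47 without and -0.42 with DGAT1i. Signs turned only where the threshold was not passed, for Csf1r under DGAT1i in IFNγ + LPS without a filter (-0.015) and without IFNγ + LPS with DGAT1i replicate 1 (-0.024, in a range of -0.024 to 0.059 over libraries left out), and for Cebpb under DGAT1i in M0 without M0 replicate 3 (-0.065) and without M0 with DGAT1i replicate 1 (-0.064, in a range of -0.065 to 0.40). With single libraries left out, 3 to 6 of the 9 genes were called for DGAT1i in M0, with 3 without M0 replicate 3 or M0 with DGAT1i replicate 1. Over all genes 2270 to 3017 were called in these fits, against 2869 with all 12 libraries. For the difference between the responses 2 to 5 of the 9 were called, with 2 without M0 replicate 1 or IFNγ + LPS replicate 2. Over all genes this was 1881 to 2160, against 2171 with all 12 libraries. DESeq2 called 2 of the 9 for this difference, Csf2rb and Spi1 (against 6.14% of all genes higher and 6.25% lower). The differences of Csf2ra and Cebpa did not pass with DESeq2 (adjusted p = 0.0951 and 0.0501) or, in each case, with 1 of 5 libraries left out (adjusted p up to 0.0963 and 0.158), nor that of Csf2ra with library size only (adjusted p = 0.0920), that of Spi1 without IFNγ + LPS replicate 2 (adjusted p = 0.0534), and that of Adgre1 passed without IFNγ + LPS with DGAT1i replicate 1 (adjusted p = 0.00800). The causes were not tested.

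The replicate numbers were not taken to pair the samples, since same-numbered libraries correlated between -0.02 and 0.07 in their deviations from group means (median 0.01) and not over 0.1. As a hint from the data, not the design, the other pairs lay between -0.06 and 0.04, and 9 of 12 libraries correlated best with their own number. With the replicate block, 9 genes were called for IFNγ + LPS with or without DGAT1i, 5 for DGAT1i in either state and 4 for the difference, and no call of the 9 genes changed. Over all genes the higher and lower shares were then 37.2% and 36.3% for IFNγ + LPS, or 35.4% and 35.3% with DGAT1i. They were 13.8% and 16.5% for DGAT1i in IFNγ + LPS, 11.4% and 13.7% in M0, and 9.01% and 10.3% for the difference. The difference between the responses needs all 12 libraries, so a fit of only 6 gave no value for it. Depth limited Cx3cr1 in IFNγ + LPS, with at most 5 reads in a library. Counts in the lists around the 9 genes were recomputed under the same alternatives, a choice made after seeing the data.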
